A study of Mus musculus with 8 samples.

Results

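The genes of antigen presentation and of the interferon response were followed in the kidney cortex of wild-type C57BL/6J mice that had eaten a normal Pi (inorganic phosphate, 0.6%) or a high Pi (1.2%) diet for 3 days. The group holds 41 of the 17457 genes listed, chosen by name for these functions with earlier results of these data known. They are the 4 chains and partners of MHC class I, 4 genes of class I peptide loading, 7 MHC class II genes, 6 interferon signalling factors, 2 RNA sensors and 18 interferon-induced effectors. Of the 41 genes, 40 had at least 0.5 FPKM in at least 4 libraries and were tested among 12383 such genes, and Nlrc5 reached that level in only 3 libraries. FPKM is the number of fragments per kilobase of transcript, scaled to the library's total, so levels can be compared between genes and between libraries as shares of a library.

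There were 4 libraries per diet, and the diets were the only difference the labels give. The study's methods give age-matched males of 8 to 16 weeks for its mouse experiments as a whole, and no separate age for these libraries. Neither the labels nor the methods state that each library came from a separate mouse, so the p-values measure the spread between these libraries. In bulk tissue, more cells of a type and more RNA per cell cannot be told apart. The tissue label was borne out by high levels of proximal tubule genes, with Slc34a1, the main phosphate transporter of the proximal tubule, at 2764 to 4146 FPKM.

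MHC class I molecules display peptides from inside the cell on nearly all cells, and each needs a heavy chain, the light chain B2m and a peptide carried in by the TAP transporter. MHC class II molecules display peptides taken up from outside and are made mainly by dendritic cells, macrophages and B cells, with the invariant chain Cd74 as their escort and Ciita as their master transcription factor. Interferons, released during viral infection, act through STAT and IRF factors on genes that carry a short interferon-stimulated response element, and many of these genes encode antiviral effectors. In the kidney, class II genes mark resident phagocytes, whereas class I and several interferon-induced genes are also transcribed in tubule and endothelial cells.

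Promoter sequences show which of these elements lie at the start of the genes. The 5 below, from RefSeq (GRCm38.p6), are read 5′ to 3′ on the strand of the gene and begin 250 bases before its start. The first 3 are shown because they hold the core of the interferon-stimulated response element (GAAA, NN and GAAA in a row), in capitals, and because their genes differed in how far apart the diets lay. The windows are chr7:141010715-141010994 (minus strand, running 30 bases past the start) for Ifitm3, chr4:156200819-156201068 (minus strand) for Isg15 and chr2:122147437-122147686 (plus strand) for B2m.
Ifitm3: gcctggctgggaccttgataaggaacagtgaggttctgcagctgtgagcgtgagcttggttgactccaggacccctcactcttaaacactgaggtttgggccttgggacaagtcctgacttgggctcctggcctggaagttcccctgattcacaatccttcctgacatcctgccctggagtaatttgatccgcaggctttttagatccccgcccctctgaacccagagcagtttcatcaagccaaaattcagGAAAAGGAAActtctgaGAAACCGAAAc
Isg15: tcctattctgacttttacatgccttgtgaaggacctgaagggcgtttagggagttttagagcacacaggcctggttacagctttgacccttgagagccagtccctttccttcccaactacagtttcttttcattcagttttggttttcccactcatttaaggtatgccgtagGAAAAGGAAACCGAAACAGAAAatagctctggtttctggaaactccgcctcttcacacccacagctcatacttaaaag
B2m: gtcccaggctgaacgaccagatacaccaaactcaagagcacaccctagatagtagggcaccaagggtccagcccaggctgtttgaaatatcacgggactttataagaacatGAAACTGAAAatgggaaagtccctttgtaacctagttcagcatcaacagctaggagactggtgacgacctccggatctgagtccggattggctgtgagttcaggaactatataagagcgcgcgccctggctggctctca
The other pair belongs to class II genes. In H2-Eb1 (chr17:34305617-34305866, plus strand) capitals mark an X box (AGCAAC, N and GATG in a row) and a Y box, CTGATTGG, the sites of the factors that recruit Ciita. In H2-Aa (chr17:34287824-34288073, minus strand) capitals mark the Y box alone.
H2-Eb1: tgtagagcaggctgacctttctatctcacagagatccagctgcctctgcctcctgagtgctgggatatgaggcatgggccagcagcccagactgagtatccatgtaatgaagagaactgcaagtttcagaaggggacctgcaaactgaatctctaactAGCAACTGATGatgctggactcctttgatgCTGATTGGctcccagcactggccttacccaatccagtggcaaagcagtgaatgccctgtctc
H2-Aa: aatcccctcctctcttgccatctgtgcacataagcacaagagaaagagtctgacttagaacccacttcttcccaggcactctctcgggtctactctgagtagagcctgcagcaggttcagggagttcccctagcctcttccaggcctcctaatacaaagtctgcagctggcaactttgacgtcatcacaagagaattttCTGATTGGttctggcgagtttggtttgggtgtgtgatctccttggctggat

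Of the 41 genes, 32 had a promoter among the RefSeq windows, which run from 250 bases before to 50 bases after each gene's start, and both strands were searched. The response element core was present in at least 1 window of 15 of these 32 genes (46.9%), against 3.99% of all 27025 genes with windows of the same length. In Isg15 it occurred 3 times in overlapping copies that began at positions -78, -72 and -66 from the start. Ifitm3 held it at positions 3 and 20 after the start, and the second copy overlapped a match to the STAT site core TTCNNNGAA, as did a copy in Bst2. B2m held a single copy, which began at position -139. The STAT site core was found in 7 of the 32 genes (21.9%), against 9.55% of all genes, and included Irf1, Irf8, Ifi35 and Bst2. The Y box was also found in 7 (21.9%, against 4.7%), among them H2-K1, H2-D1, H2-T23 and Tap1 of class I. The X box string was found in H2-Eb1 alone (3.12%, against 0.0851%). Only this string was sought, so looser forms of the X box, in H2-Aa or elsewhere, were not looked for. The class II genes Cd74, Ciita and H2-Ab1 had no promoter among the windows. The Y and X boxes were added to the search after the data had been seen, and their matches in members overlapped none of the other elements.

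**Figure D1:**
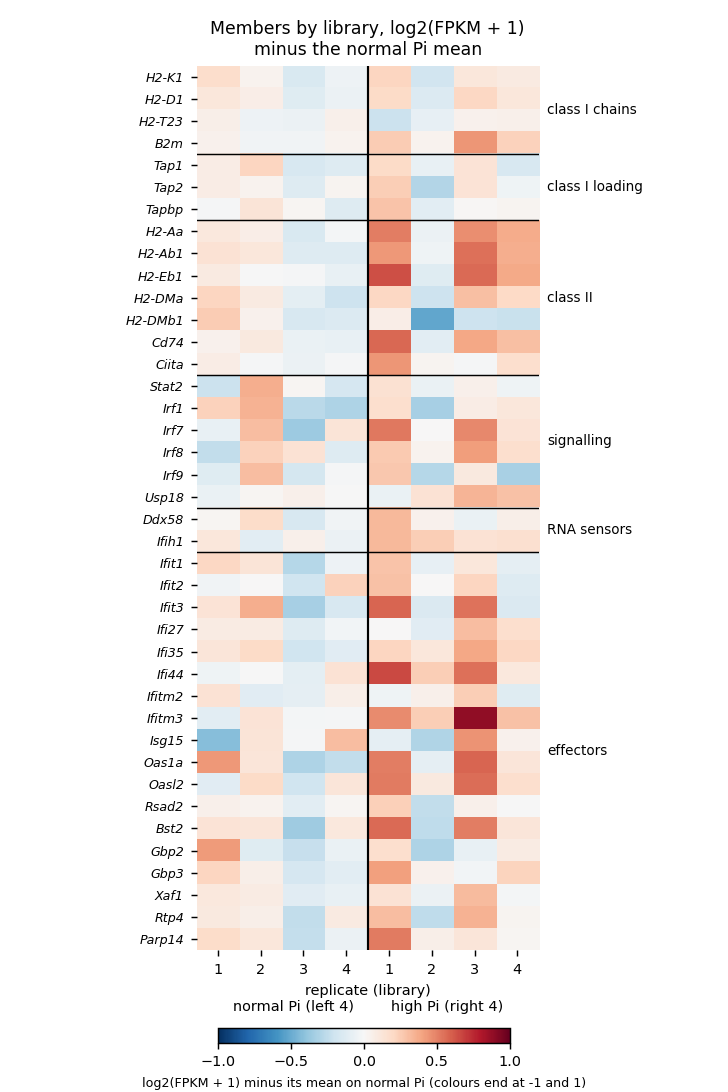
Heat map of the 40 tested members (rows, ordered by role) in the 8 libraries (columns). Colour gives log2(FPKM + 1) minus its mean over the normal Pi libraries, red for higher and blue for lower, and the colours end at -1 and 1. Most red cells lie in high Pi replicates 1 and 3, and high Pi replicate 2 is pale or blue for most class II genes.

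No member passed an adjusted p of 0.05 in either direction (limma-trend, 0 of 40), where 0.178% of all tested genes were called higher on high Pi and 0.121% lower. Without adjustment, 10 members had p under 0.05, all with higher values on the high Pi diet, against 4.55% of all genes higher and 4.8% lower. These were B2m, H2-Aa, H2-Ab1, H2-Eb1, Cd74, Ifih1, Ifi35, Ifi44, Ifitm3 and Oasl2. The log2 fold change was above 0 in 36 of 40 members, against 45.7% of all genes, and its median was 0.12, against -0.01 over all genes. The members, and the pathway and marker lists used below, were chosen with earlier results of these data known. Their counts set against all genes are therefore not independent of that choice. The count of 10 became 5 without normal Pi replicate 3 (3.29% of all genes higher) and 5 without high Pi replicate 3 (3.87%). It became 6 without normal Pi replicate 4 (3.47%) and 12 without high Pi replicate 2 (5.05%). Without high Pi replicate 1, 7 members were higher and 1 lower at that level, where 6.24% of all genes were higher. With library weights, 9 members were higher and 1 lower, where 8.04% of all genes were higher. The median of 0.12 became 0.07 without high Pi replicate 1, 0.08 without normal Pi replicate 3 and 0.19 without high Pi replicate 2. For 32 of the 40 members, the 95% interval of the fold change stayed within 1.5-fold in either direction.

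Many members were high or low in the same libraries. High Pi replicate 1 held the highest value of 18 of the 40 members (45%), against 33.5% of all genes, and high Pi replicate 3 the highest of 15 (37.5%), against 12.4% of all genes. High Pi replicates 2 and 4 were the highest library for none of them. The lowest value lay in normal Pi replicate 3 for 18 members (13.5% of all genes) and in high Pi replicate 2 for 10 (13.7% of all genes). Relative to the normal Pi mean, the median member stood at 0.28 and 0.27 on the log2 scale in high Pi replicates 1 and 3, at 0.11 in replicate 4 and at -0.08 in replicate 2. The median over all genes in these libraries lay between -0.05 and 0.07. Across all genes, high Pi replicate 1 was the most distant library (root mean square difference from the mean of the other libraries of its diet 0.299 on the log2 scale, 0.138 to 0.212 for the other 7), and it was kept.

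**Figure D2:**
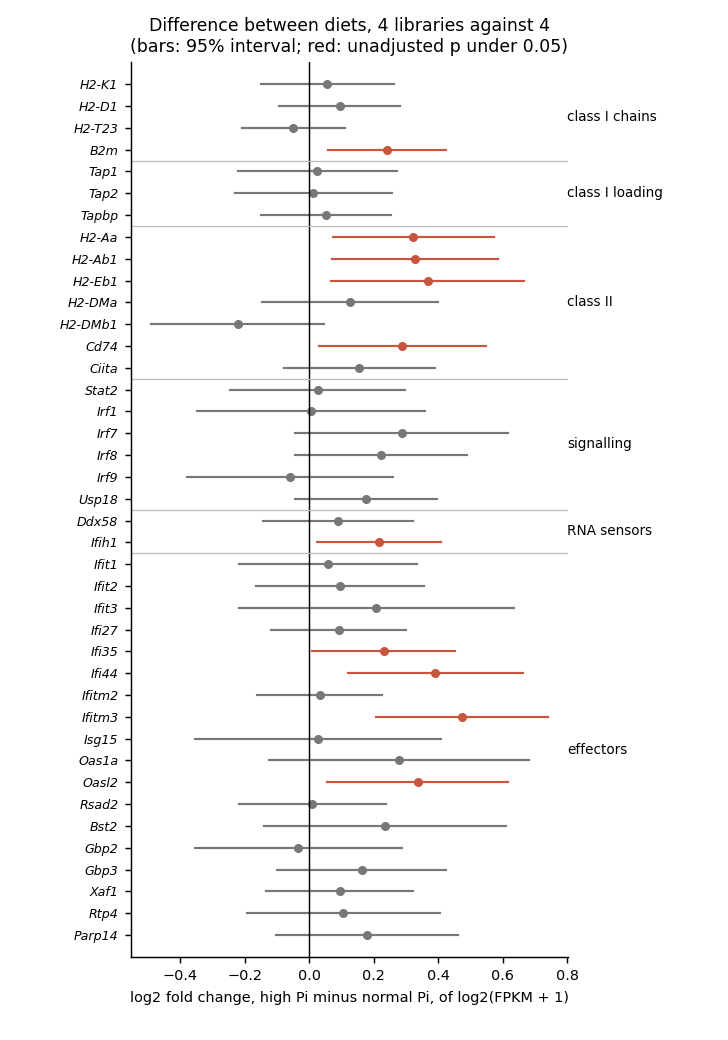
Log2 fold change of log2(FPKM + 1), high Pi minus normal Pi, for the 40 tested members, with 4 libraries per diet. Points are limma-trend estimates and bars their 95% intervals, and red marks the 10 members with an unadjusted p under 0.05, none of which passed the adjusted threshold.

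Among the class I genes, B2m, the light chain that every class I molecule needs, was the most abundant member and differed most between the diets. It lies on chromosome 2 from 122147687 to 122153082 (GRCm38.p6, gene ID 12010). Its level was 548, 519, 519 and 544 FPKM in the normal Pi libraries and 634, 545, 725 and 626 FPKM in the high Pi libraries, in order of replicate. The 3 highest values were all on high Pi, whereas high Pi replicate 2 lay within the normal Pi range. The mean was 533 ± 15.8 FPKM (SD, n = 4) on normal Pi and 632 ± 73.6 FPKM (SD, n = 4) on high Pi, which gave a log2 fold change of 0.24 (SE 0.0837, limma-trend adjusted p = 0.327) and an exact permutation p of 0.0571 (two-sided, as throughout). The heavy chains H2-K1, H2-D1 and H2-T23, which hold the peptide, had log2 fold changes of 0.06, 0.09 and -0.05, each with overlapping diets. H2-K1 averaged 87.6 and 91.2 FPKM, H2-D1 127 and 136 FPKM, and H2-T23 55.0 and 53.3 FPKM on normal and high Pi. Because class I heavy chain genes resemble each other, reads may have been shared among them, and their separate values are uncertain.

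The genes that load class I with peptide were much less abundant and did not differ beyond their spread. Tap1 and Tap2, the paired subunits of the peptide transporter, averaged 4.11 and 8.30 FPKM on normal Pi and 4.19 and 8.45 FPKM on high Pi (log2 fold changes 0.03 and 0.01). Tapbp encodes tapasin, which bridges TAP and class I, and was the most abundant of them (chromosome 17, 33919478 to 33929290, gene ID 21356). It was measured at 14.9, 16.5, 15.2 and 13.6 FPKM on normal Pi and 18.5, 13.9, 15.2 and 15.3 FPKM on high Pi. High Pi replicate 1 was the highest and the other libraries were mixed (log2 fold change 0.05, SE 0.0926, limma-trend adjusted p = 0.930). Nlrc5, the transcriptional activator of class I genes, was scarcely detected, at 0.41, 0.70, 0.28 and 0.27 FPKM on normal Pi and 0.87, 0.29, 0.33 and 0.51 FPKM on high Pi. The same high Pi replicate 1 was the highest library for Nlrc5, which was not tested.

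The class II genes had the largest median log2 fold change of the role groups, 0.29 over 7 genes. Their summed level was 545, 544, 478 and 483 FPKM on normal Pi and 732, 475, 686 and 635 FPKM on high Pi. Thus 3 high Pi libraries lay above all normal Pi libraries, and high Pi replicate 2 lay below them all. Every class II gene but H2-DMb1 had a positive fold change, against 45.7% of all genes. An unadjusted p under 0.05 was reached by 4 of the 7, against 4.55% of all genes higher, and none passed the adjusted p.

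Cd74, the invariant chain, was the second most abundant member (chromosome 18, 60803849 to 60812652, gene ID 16149). It reached 268, 280, 249 and 248 FPKM on normal Pi and 388, 243, 341 and 322 FPKM on high Pi. High Pi replicate 2 was the lowest of the 8 libraries and the other 3 high Pi libraries were the highest. The fold change was 0.29 on the log2 scale (SE 0.119, limma-trend adjusted p = 0.444, exact permutation p = 0.143). Its 2 listed transcripts, at 77.9% and 22.1% of its level, had the same 3 high Pi libraries at the top, from 248 to 298 FPKM for the larger and from 70.6 to 90.4 FPKM for the smaller.

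H2-Aa encodes the alpha chain of the I-A molecule (chromosome 17, 34282744 to 34287823, gene ID 14960). Its level was 88.5, 85.9, 73.6 and 80.8 FPKM on normal Pi and 118, 78.7, 113 and 107 FPKM on high Pi, with a log2 fold change of 0.32 (SE 0.114, limma-trend adjusted p = 0.338, exact permutation p = 0.114). Its partner beta chain, H2-Ab1 (chromosome 17, 34263227 to 34269418, gene ID 14961), was at 116, 113, 95.9 and 95.8 FPKM on normal Pi and 142, 102, 154 and 135 FPKM on high Pi. The fold change of H2-Ab1 was 0.33 on the log2 scale (SE 0.118, limma-trend adjusted p = 0.355, exact permutation p = 0.0857). For both chains the diets overlapped through high Pi replicate 2 alone, and the other high Pi libraries lay above every normal Pi library.

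H2-Eb1, the beta chain of the I-E class (chromosome 17, 34305867 to 34316674, gene ID 14969), carries the X and Y boxes printed above. It was measured at 32.2, 30.1, 29.9 and 28.6 FPKM on normal Pi and at 47.9, 27.6, 45.2 and 39.6 FPKM on high Pi. High Pi replicate 2 held the lowest of all 8 values and the other 3 high Pi libraries the highest. Its log2 fold change of 0.37 was the largest of the class II genes (SE 0.137, limma-trend adjusted p = 0.377, exact permutation p = 0.143). Without high Pi replicate 2, H2-Eb1 alone among the members passed, at a log2 fold change of 0.53 and an adjusted p of 0.0408 (limma-trend), where 0.073% of all genes were called higher and 0.0487% lower. Its adjusted p ranged from 0.0408 to 0.699 over the alternatives.

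Ciita, the master regulator of class II genes, was low, at 1.16, 1.04, 0.97 and 1.04 FPKM on normal Pi and 1.79, 1.09, 1.03 and 1.30 FPKM on high Pi (chromosome 16, 10480014 to 10531064, gene ID 12265). High Pi replicates 1 and 4 exceeded all normal Pi values and the other pair did not (log2 fold change 0.16, SE 0.107, limma-trend adjusted p = 0.720). H2-DMa and H2-DMb1 form the editor that exchanges peptides on class II. H2-DMa averaged 8.79 FPKM on normal Pi and 9.70 FPKM on high Pi (log2 fold change 0.13). H2-DMb1 had the only negative fold change of the group, at -0.22, with 23.8 ± 3.39 FPKM (SD, n = 4) on normal Pi and 20.3 ± 3.51 FPKM (SD, n = 4) on high Pi (limma-trend adjusted p = 0.633). These 2 subunits of one complex had fold changes of opposite sign, with 95% intervals that overlapped.

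Macrophage markers and 6 general leukocyte markers were high in the same libraries as the class II genes. The B cell and neutrophil markers given further on did not share that order. In the sum of the T and NK cell markers, normal Pi replicate 1 was the highest, at 4.17 FPKM. High Pi replicates 3, 1 and 4 followed it, at 3.66, 3.49 and 3.42 FPKM. Of 12 macrophage markers, 10 were tested and all 10 were positive, against 45.7% of all genes, with a median log2 fold change of 0.32. Among the macrophage markers, 5 had an unadjusted p under 0.05, against 4.55% of all genes higher, and none passed the adjusted p (limma-trend). Their summed level was 124, 128, 106 and 118 FPKM on normal Pi and 164, 117, 164 and 165 FPKM on high Pi, so that high Pi replicate 2 was again within the normal Pi range. Among them C1qb, a subunit of the complement protein C1q, was at 26.9 to 34.6 FPKM on normal Pi and 33.1 to 47.4 FPKM on high Pi. The 6 general leukocyte markers (Ptprc, Cd52, Laptm5, Coro1a, Cd53 and Lcp1) summed to 45.9 to 54.6 FPKM on normal Pi and 43.9 to 69.5 FPKM on high Pi, and all 6 were positive (median 0.23). The 6 fibroblast and mural cell markers had a like order, with sums of 44.9, 54.9, 47.1 and 47.2 FPKM on normal Pi and 62.3, 45.1, 62.5 and 72.2 FPKM on high Pi. Of these 6, 5 were positive (median log2 fold change 0.28), among them Dcn, which encodes the matrix protein decorin, at 0.66, and Acta2, smooth muscle actin, was lower without overlap (-0.22), with none passing the adjusted p (limma-trend). The dendritic cell markers also had their highest sums in high Pi replicates 1, 3 and 4, at 5.08, 4.27 and 3.70 FPKM. So did 6 markers of the loop, distal tubule and collecting duct, at 1627, 1698 and 1515 FPKM. Their lowest sum, 1299 FPKM, lay in high Pi replicate 2. The most abundant of these 6 was Umod (log2 fold change 0.24), and 4 of the 6 had negative fold changes (median -0.09). The part of these markers in the class II values was not tested.

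**Figure D3:**
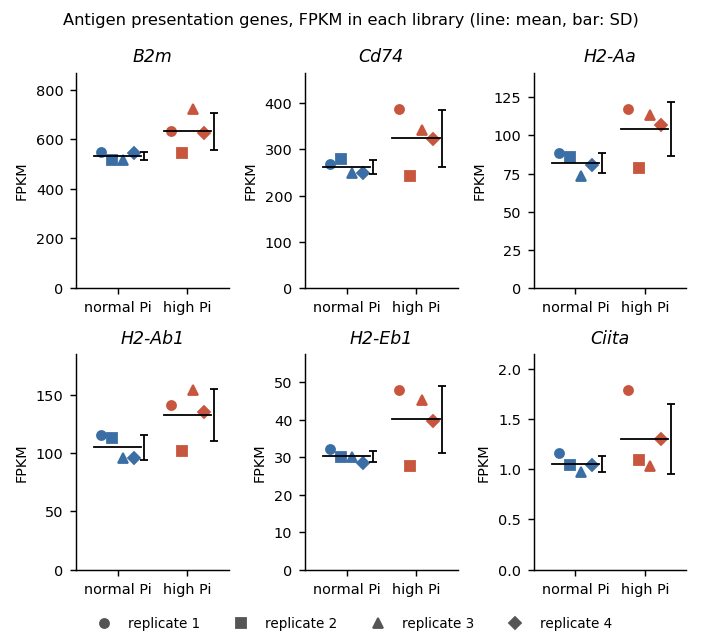
FPKM (y axis, from 0) of 6 antigen presentation genes in each library, with a symbol per replicate, the mean as a line and the SD as a bar, for 4 normal Pi (blue) and 4 high Pi (red) libraries. For B2m, Cd74, H2-Aa, H2-Ab1 and H2-Eb1 the square of high Pi replicate 2 lies at the level of the normal Pi libraries, below the other 3 high Pi libraries.

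None of the 6 signalling factors reached an unadjusted p of 0.05. Irf7, the factor that amplifies type I interferon responses, showed the largest difference (chromosome 7, 141263183 to 141266499, gene ID 54123). It was at 9.39, 12.6, 7.54 and 11.0 FPKM on normal Pi and 14.8, 9.99, 14.3 and 11.0 FPKM on high Pi. High Pi replicates 1 and 3 were above all normal Pi libraries and the other pair lay among them (log2 fold change 0.29, SE 0.152, limma-trend adjusted p = 0.611). Irf8, a factor of macrophages and dendritic cells, averaged 4.9 and 5.85 FPKM (log2 fold change 0.22), and Usp18, which dampens interferon receptor signalling, 1.19 and 1.49 FPKM (0.18). Stat2 and Irf9, which act together in binding the response element, averaged 3.15 and 7.28 FPKM on normal Pi and 3.18 and 7.0 FPKM on high Pi, with log2 fold changes of 0.03 and -0.06. Irf1, an early interferon gamma target, was at 6.30 FPKM on normal Pi and 6.24 FPKM on high Pi. The 95% interval of the fold change ran from -0.25 to 0.30 for Stat2 and from -0.38 to 0.26 for Irf9.

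Both cytosolic sensors of viral RNA were expressed at a few FPKM. Ifih1, which encodes MDA5 (chromosome 2, 62595618 to 62646255, gene ID 71586), was at 2.94, 2.40, 2.78 and 2.51 FPKM on normal Pi and 3.57, 3.32, 3.03 and 3.07 FPKM on high Pi. Every high Pi library exceeded every normal Pi library, with the nearest values at 2.94 and 3.03 FPKM. The log2 fold change was 0.22 (SE 0.0879, limma-trend adjusted p = 0.434), and the exact permutation p of 0.0286 is the smallest that 4 libraries against 4 allow. Of its 2 listed transcripts, the one with 54.9% of the level overlapped between diets (exact permutation p = 0.0571), as did the other. Ddx58, which encodes RIG-I (chromosome 4, 40203777 to 40239825, gene ID 230073), was at 4.26, 4.89, 3.64 and 4.07 FPKM on normal Pi and 5.51, 4.35, 3.95 and 4.41 FPKM on high Pi. Apart from the high value in high Pi replicate 1, the Ddx58 libraries were mixed (log2 fold change 0.09, SE 0.107, limma-trend adjusted p = 0.879).

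Among the 18 effectors, the median log2 fold change was 0.13 and 17 were positive, against 45.7% of all genes. An unadjusted p under 0.05 was reached by 4, against 4.55% of all genes higher, and none passed the adjusted p. Ifitm3, a membrane protein that blocks the entry of enveloped viruses, had the largest fold change and the smallest p of all members (chromosome 7, 141009590 to 141010744, gene ID 66141). Its level was 60.4, 71.8, 64.2 and 64.5 FPKM on normal Pi and 90.5, 77.3, 121 and 79.8 FPKM on high Pi. No high Pi library fell within the normal Pi range, and high Pi replicate 3 was the highest. The mean was 65.2 ± 4.79 FPKM (SD, n = 4) on normal Pi and 92.3 ± 20.3 FPKM (SD, n = 4) on high Pi, a log2 fold change of 0.47 (SE 0.123, 95% interval 0.21 to 0.74, limma-trend adjusted p = 0.170, exact permutation p = 0.0286). Ifitm3 and Ifih1 were the only members whose diets did not overlap, both with higher values on high Pi, where 2.41% of all tested genes lay higher without overlap and 2.62% lower.

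Ifitm2, which lies near Ifitm3 on chromosome 7 (140954837 to 140959686, gene ID 80876), was the most abundant effector and did not differ beyond its spread. It was at 169, 141, 143 and 159 FPKM on normal Pi and 148, 158, 181 and 140 FPKM on high Pi (log2 fold change 0.03, SE 0.0886, limma-trend adjusted p = 0.960). The highest and the lowest value of Ifitm2 both lay on high Pi, in replicates 3 and 4. Ifitm1, which is not a member, lies between the 2 genes (140967429 to 140969827). It averaged 4.25 and 6.49 FPKM on normal and high Pi with overlapping diets, and high Pi replicate 3 was its highest library. Its log2 fold change was 0.46 (limma-trend adjusted p = 0.475). The sequences of the Ifitm genes are alike, so some reads may have been assigned to either.

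Ifi44, an interferon-induced cytoplasmic protein, ranked next to Ifitm3 among the effectors (chromosome 3, 151730922 to 151749910, gene ID 99899). It was measured at 3.25, 3.38, 3.09 and 3.86 FPKM on normal Pi and 5.94, 4.19, 5.43 and 3.73 FPKM on high Pi. High Pi replicate 4 fell within the normal Pi range and the others lay above it (log2 fold change 0.39, SE 0.124, limma-trend adjusted p = 0.274, exact permutation p = 0.0571). Oasl2, of the oligoadenylate synthetase family that senses double-stranded RNA (chromosome 5, 114896926 to 114912245, gene ID 23962), was at 4.07, 5.27, 3.79 and 4.97 FPKM on normal Pi and 6.87, 4.87, 7.09 and 5.18 FPKM on high Pi. As with Irf7, replicates 1 and 3 of the high Pi diet were the highest and the other pair overlapped normal Pi (log2 fold change 0.34, SE 0.129, limma-trend adjusted p = 0.394, exact permutation p = 0.143). Ifi35, a leucine zipper protein (chromosome 11, 101448412 to 101458701, gene ID 70110), was at 10.5, 11.1, 8.26 and 8.79 FPKM on normal Pi and 11.3, 10.5, 12.9 and 11.2 FPKM on high Pi. Only high Pi replicate 2 overlapped the normal Pi range for Ifi35 (log2 fold change 0.23, SE 0.101, limma-trend adjusted p = 0.492, exact permutation p = 0.0857).

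Oas1a, which makes the oligoadenylates that activate RNase L, varied most among the effectors, with a coefficient of variation of 36.6% over the 8 libraries (chromosome 5, 120896256 to 120907544, gene ID 246730). It was at 2.38, 1.72, 1.01 and 1.10 FPKM on normal Pi and 2.55, 1.34, 2.73 and 1.71 FPKM on high Pi. A normal Pi library, replicate 1, was the third highest, and the diets overlapped widely (log2 fold change 0.28, SE 0.185, limma-trend adjusted p = 0.706).

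**Figure D4:**
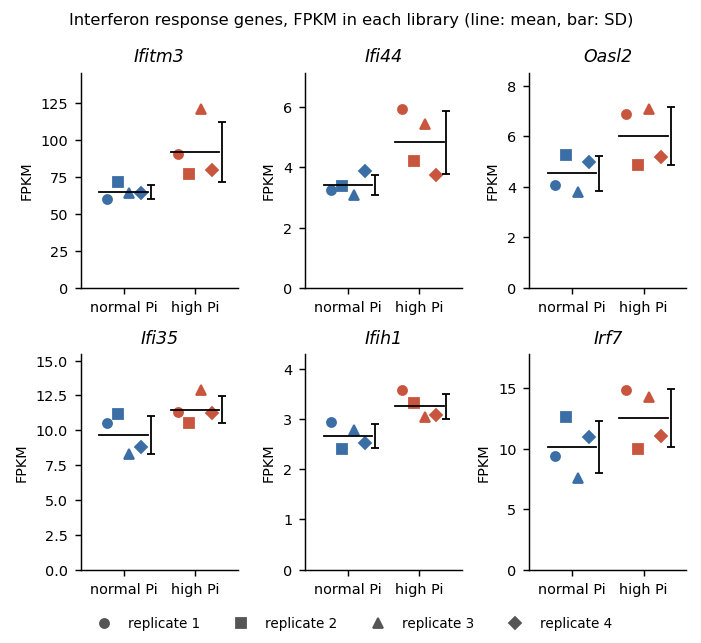
FPKM (y axis, from 0) of 6 interferon response genes in each library, with a symbol per replicate, the mean as a line and the SD as a bar, for 4 normal Pi (blue) and 4 high Pi (red) libraries. The diets are separate for Ifitm3 and Ifih1 and overlap for Ifi44, Oasl2, Ifi35 and Irf7.

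The other 12 effectors had log2 fold changes between -0.03 and 0.24 and overlapping diets. Bst2 (tetherin, which holds budding viruses at the cell surface) and Ifit3, of the family that binds viral RNA, stood at 0.24 and 0.21, with means of 12.4 and 15.0 FPKM for Bst2 and 6.46 and 7.74 FPKM for Ifit3. The guanylate binding protein Gbp3 (0.16) and Parp14, an ADP-ribosyltransferase (0.18), followed at 1.31 to 2.57 FPKM. Rtp4, Ifit2, Xaf1 and Ifi27 had fold changes of 0.11, 0.10, 0.09 and 0.09, and Ifi27 was the most abundant of them, at 18.3 and 19.7 FPKM. Ifit1, Isg15, Rsad2 and Gbp2 lay closest to 0, at 0.06, 0.03, 0.01 and -0.03. Isg15, the ubiquitin-like modifier that is among the most strongly induced interferon targets, was at 3.65 ± 0.947 FPKM (SD, n = 4) on normal Pi and 3.74 ± 1.08 FPKM (SD, n = 4) on high Pi, and Rsad2 (viperin) at 4.59 ± 0.277 FPKM and 4.66 ± 0.765 FPKM. The promoters of Isg15 and Ifitm3 printed above both hold the response element, and the fold changes of these genes, 0.03 and 0.47, were not tested against each other.

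Genes were also read by the element in their promoter. The 15 members with the response element core had a median log2 fold change of 0.09, and 13 of them were positive. Over all 40 tested members, with or without it, the median was 0.12 and 36 were positive. The 354 other tested genes with the same core had a median of -0.0028, and 1 of them was called. The 7 members with a STAT site core had a median of 0.23, against -0.01 for the 799 other tested genes with it. The 7 members with a Y box had a median of 0.09, against -0.01 for the 629 other tested genes with it.

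The precision of these levels varied with abundance. From the steps between the lowest values, the depth of a library was estimated at 12800000 to 14200000 fragments. At that depth B2m rested on about 5600 fragments in the median library, with a counting error of 1.3%, and Ifitm3 on 580 (4.2%). Ifi44 rested on 160 fragments (8.0%), Isg15 on 34 (17%) and Usp18 on 28 (19%). The counting error covers the sampling of fragments alone. The 95% interval of the Isg15 fold change, -0.36 to 0.41, includes 0.24, the fold change of B2m. A difference of that size in Isg15 is therefore not excluded.

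Other genes of the pathway were read from a list of 143 gene names, of which 132 were matched to separate genes and analysed and 115 tested. None passed an adjusted p of 0.05 (limma-trend, 0 of 115). Without adjustment, 12 had p under 0.05 with higher values on high Pi and 2 with lower, against 4.55% and 4.8% of all genes. The log2 fold change was positive in 74, against 45.7% of all genes, and its median was 0.05. The diets did not overlap in 6 with higher values and 1 with lower, against 2.41% and 2.62% of all genes. Of the ligands, Ifng was listed at 0 in all but 1 library and Ifnk in all 8. The interferon-induced chemokines Cxcl9, Cxcl10 and Ccl5 averaged 1.59, 5.09 and 5.95 FPKM on normal Pi and 1.69, 4.72 and 5.58 FPKM on high Pi. None of these chemokines reached an unadjusted p of 0.05.

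Of the receptors and transducers, Ifngr2, a subunit of the interferon gamma receptor, was at 14.4, 17.8, 13.7 and 16.2 FPKM on normal Pi and 20.8, 19.9, 20.6 and 19.4 FPKM on high Pi. All 4 high Pi libraries lay above normal Pi within a narrow band (log2 fold change 0.37, limma-trend adjusted p = 0.120). Irf5, an interferon regulatory factor of myeloid cells, averaged 6.70 and 8.88 FPKM (0.33, limma-trend adjusted p = 0.524), and high Pi replicate 1, at 5.63 FPKM, was its lowest library. Ifi204, a DNA-binding interferon-induced protein, was at 1.27, 1.29, 0.75 and 1.14 FPKM on normal Pi and 1.81, 1.80, 1.79 and 2.1 FPKM on high Pi. Its diets did not overlap either (log2 fold change 0.45, limma-trend adjusted p = 0.120). Without high Pi replicate 1, Ifi204, Ifngr2 and Irf5 passed, with log2 fold changes of 0.46, 0.35 and 0.51 and adjusted p of 0.0415, 0.0498 and 0.00708 (limma-trend), where 1.27% of all genes were called higher and 2.17% lower. With library weights the same 3 genes and Psme1 passed, where 1.66% of all genes were called higher and 2.11% lower, and no member did under either setting.

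Psme1, a subunit of an activator of the proteasome, which cuts antigenic peptides, averaged 42.7 ± 1.65 FPKM (SD, n = 4) on normal Pi and 48.9 ± 1.39 FPKM (SD, n = 4) on high Pi without overlap (log2 fold change 0.19, limma-trend adjusted p = 0.258). Psme2, read in the same list, averaged 44.45 and 43.7 FPKM with overlapping diets (log2 fold change -0.02). The immunoproteasome subunits Psmb8 and Psmb9 averaged 8.53 and 5.69 FPKM on normal Pi and 9.14 and 7.04 FPKM on high Pi, and their diets overlapped. H2-Oa, which restrains the H2-DM editor, averaged 1.12 and 1.58 FPKM without overlap (0.28, limma-trend adjusted p = 0.330). Calr, the chaperone calreticulin of the class I loading complex, was lower on high Pi without overlap, at 332 ± 10.2 and 296 ± 14.7 FPKM (SD, n = 4), and its fold change was -0.16 on the log2 scale (limma-trend adjusted p = 0.381). Tmem173, which encodes the DNA sensing adaptor STING, averaged 1.37 and 1.79 FPKM, and Trim30a 0.79 and 1.15 FPKM (0.23 and 0.26). Trim30a, Ifi204 and Ifi27l2a came from a list of other interferon-induced genes. Of its 43 tested genes, 30 had positive and 13 negative fold changes. Irgm1 was lower at an unadjusted p under 0.05 (log2 fold change -0.29, limma-trend adjusted p = 0.502). Tgtp1 had the most negative fold change, -0.40. Ifi27l2a had the largest fold change of the list, 1.21 (limma-trend adjusted p = 0.301), at 13.97, 6.28, 6.32 and 9.44 FPKM on normal Pi and 12.9, 9.82, 36.0 and 42.3 FPKM on high Pi. Its highest libraries, high Pi replicates 3 and 4 and then normal Pi replicate 1, were also the 3 highest for the summed adipocyte markers Adipoq, Fabp4, Plin1 and Cfd, at 175, 295 and 102 FPKM against 33.9 to 54.5 FPKM in the other 5. The part of the adipocyte markers in Ifi27l2a was not tested. The span of Ifi27l2a on chromosome 12, 103433873 to 103443680, holds that of the member Ifi27, 103434189 to 103440245. Some reads may therefore have been assigned to either gene, and their separate values are uncertain.

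Dendritic cell markers were low, at summed levels of 2.52 to 3.59 FPKM on normal Pi and 2.84 to 5.08 FPKM on high Pi over 7 genes, of which 3 were tested and all 3 were positive. The 4 B cell markers summed to 1.95 to 2.87 and 1.75 to 4.51 FPKM, and the 7 T and NK cell markers to 1.92 to 4.17 and 2.26 to 3.66 FPKM. The 4 neutrophil markers summed to 1.66 to 2.08 FPKM on normal Pi and 0.92 to 1.64 FPKM on high Pi without overlap, and the only one tested, S100a8, lay at -0.32 on the log2 scale relative to normal Pi (limma-trend adjusted p = 0.404). No marker of any list was at 0 in all 8 libraries. The 8 endothelial markers summed to 239.9 to 276 FPKM on normal Pi and 272 to 333 FPKM on high Pi (median log2 fold change 0.14). The 8 proximal tubule markers summed to 5022 to 5663 FPKM on normal Pi and 4061 to 4508 FPKM on high Pi without overlap. Most of this sum was Slc34a1, at means of 3909 and 2958 FPKM. Fold changes were negative for 6 of the 8, among them Slc34a1 (-0.40) and the glucose transporter Slc5a2 (-0.49), neither of which passed (limma-trend adjusted p = 0.102 and 0.0584). They were positive for the organic anion transporter Slc22a6 (0.08) and for Slc7a13 (0.07). The part of these markers in the members' values was not tested.

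**Figure D5:**
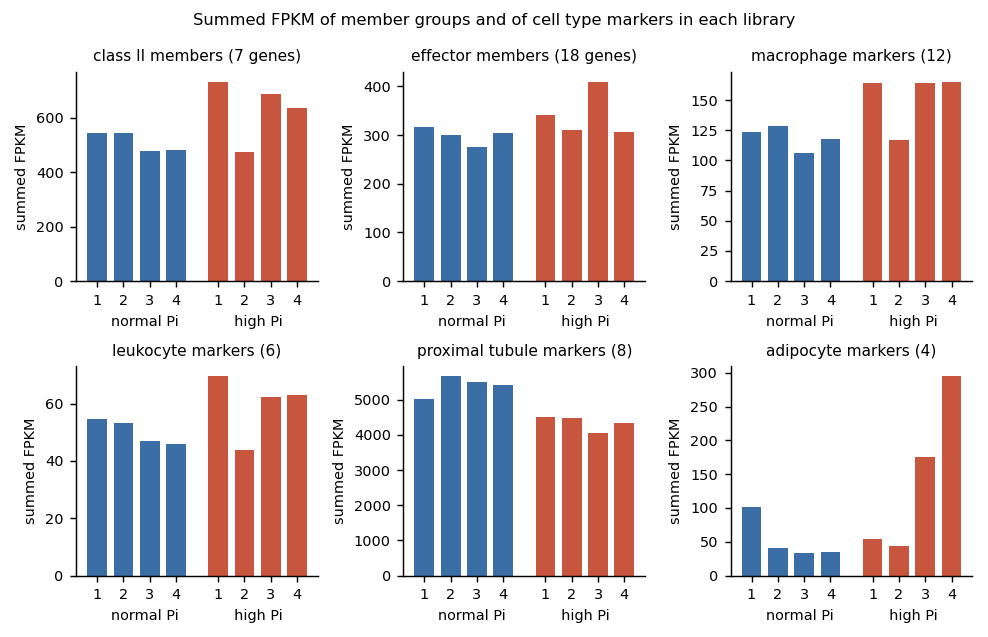
Summed FPKM (bars, from 0) of the 7 class II members, the 18 effectors and the markers of macrophages, leukocytes, proximal tubule and adipocytes in each of the 4 normal Pi (blue) and 4 high Pi (red) libraries, with the replicate number on the x axis. The class II members and the macrophage and leukocyte markers are high in high Pi replicates 1, 3 and 4 and not in replicate 2, and the summed proximal tubule markers, mostly Slc34a1, are lower in all 4 high Pi libraries.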

How the data were processed

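The 41 members, the pathway list and the marker lists were chosen with earlier results of these data known. Kidney cortex RNA was extracted by the authors with an RNeasy kit and sequenced on the BGI DNBSEQ platform. Per the labels, HISAT, Bowtie2 and the build GRCm38.p6 were used; versions, the counting step and use of strand are not given in the sources used here. The authors deposited FPKM per gene and per transcript, scaled within each library and given to the nearest hundredth. FPKM are shares of a library, so a change in very abundant genes shifts all others.

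FPKM were taken as log2(FPKM + 1) and, in genes that reached 0.5 FPKM in at least 4 of 8 libraries, tested with limma-trend (limma 3.58.1, R 4.3.3), as the difference of high Pi from normal Pi, with Benjamini-Hochberg adjustment over all 12383 genes and a threshold of 0.05. The planned design named this fit for files without counts, so no count test was run. Single genes were also tested by an exact two-sided permutation test over all 70 assignments. The fit was tested on simulated data. Depth was estimated from the steps of low values and is not stated by the files. In the gene tables, 23 symbols turned into dates were restored from gene IDs. Positions and names came from RefSeq (GRCm38.p6).

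Values in every library are given for members with an unadjusted p under 0.05, without overlap, or with the highest mean or coefficient of variation in their role group. Other members are given by means and fold changes. Of the other pathway genes, up to 3 per list with the smallest p were named, and of the marker lists up to 3 with the highest mean. H2-DMb1, Isg15, Rsad2, Slc5a2, Ifitm1, Irgm1, Tgtp1, Psme2 and the adipocyte markers were singled out after their values were seen. Alternatives were quantile normalization, median-of-ratios scaling, a pseudocount of 0.1, no filter, a filter at 1 FPKM, the replicate block, library weights and leaving out each library. Python 3.11.15 with numpy 2.4.6, pandas 2.3.3 and matplotlib 3.10.9 served for the rest. All libraries entered the main results.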

Additional observations from a re-analysis of the deposited data

Results flagged for a closer look

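In 2 of 82 groups of 4 libraries (41 members, both diets) a single library lay far from the other 3, as judged by Dixon's ratio of the gap to the group's range. Bst2 stood at 9.36 FPKM in normal Pi replicate 3, a gap of 0.922 of the group's range. Rtp4 stood at 2.40 FPKM in the same library, a gap of 0.867. Chance flags about 1 in 20 groups. In both cases the library was the lowest of its diet, and it held the lowest value of 18 of the 40 tested members.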

How the results depend on the processing

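Over 15 alternatives, 26 of 40 members kept the sign of their log2 fold change, and 14, with reported values between -0.06 and 0.11, did not. Under library weights the reversed values were -0.0058 for Tap1, -0.068 for Tap2, -0.064 for Ifit2, -0.015 for Ifitm2, -0.105 for Isg15, -0.051 for Rsad2 and -0.0015 for Rtp4. With libraries left out in turn the fold change ranged from -0.082 to 0.0058 for H2-T23, -0.030 to 0.097 for Tap1, -0.066 to 0.11 for Tap2, -0.024 to 0.11 for Tapbp, -0.045 to 0.15 for Stat2, -0.099 to 0.12 for Irf1, -0.17 to 0.044 for Irf9, -0.039 to 0.13 for Ifit1, -0.039 to 0.085 for Ifitm2, -0.12 to 0.14 for Isg15, -0.065 to 0.095 for Rsad2 and -0.11 to 0.11 for Gbp2. With each library left out in turn, 28 members kept their sign, Ifit2 and Rtp4 among them. Of these 28, 17 moved by over 1.5 times with some library left out. Examples were Ciita (0.059 to 0.21), H2-DMb1 (-0.32 to -0.12), Irf7 (0.17 to 0.39), Ifit3 (0.083 to 0.33), Bst2 (0.12 to 0.40), Parp14 (0.066 to 0.24) and H2-K1 (0.0029 to 0.14). The count of members called ranged from 0 to 1 when libraries were left out (H2-Eb1, without high Pi replicate 2), and was 0 under every other alternative. Pathway genes called higher ranged from 0 to 3, and library weights called 4 (Ifi204, Ifngr2, Irf5 and Psme1). Over all genes, 22 were called higher and 15 lower, against 6 and 2 with no filter, 205 and 261 with library weights, and 3 to 156 and 1 to 267 with a library left out, the highest without high Pi replicate 1. The cause was not tested. Library weights made 29 of 40 members positive, where the fit without them made 36 positive. The replicate block called 8 genes higher and 3 lower. It left 8 members higher with an unadjusted p under 0.05, against 4.2% of all genes. Same-numbered libraries did not deviate together (correlations across genes from -0.21 to 0.06), so the numbers were not read as pairs. Depth limits the members with few fragments, such as Isg15 and Usp18.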
